A study of Moesziomyces aphidis with 9 samples.

Results

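The regions described here are the shortest introns of the yeast-like smut fungus Moesziomyces aphidis (formerly Pseudozyma aphidis), strain DSM70725, that were seen spliced in every library of a comparison between carbon sources. An intron belonged to the set when its splice junction was listed in all 6 unstranded 50 bp libraries and its length was at most 75 nt. This gave 619 introns out of 2312 listed in all 6 libraries (26.8%, called core introns below) and out of 8340 junctions listed in any of them. The rule used the presence of a read in each library, so introns that fell silent in 1 medium could not be members. Read numbers above that minimum were not used.

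All cultures were kept at 30 °C for 114 h, and their medium held yeast extract and 40 g/l glucose. The glucose group (3 libraries, labelled as not induced, cells described as blastospores) received nothing else, and the soybean oil group (3 libraries, labelled as induced, cells described as filaments) also held 70 g/l of the oil. Medium and cell form changed together and cannot be told apart. Total RNA was sequenced as 50 bp single reads. Further libraries carried the numbers of replicates already present: 1 stranded library per medium (replicate 1) and 1 paired-end library with 95 bp reads (soybean oil replicate 2). Sample titles number the replicates br1 to br3, but do not spell out whether they came from separate cultures. The spread behind each p-value may therefore be technical.

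Introns are removed by the spliceosome, which recognises the donor site at the 5′ end, the branch point and the acceptor site at the 3′ end. Most fungal introns are short and are thought to be recognised as a unit across the intron, and smut fungi such as Ustilago maydis are known for having few introns per gene. A lower limit on length is set by the room the spliceosome needs between donor and branch point. A retained intron whose length is not a multiple of 3 shifts the reading frame. The deposited data list positions and reads without naming genes, so introns are named by scaffold and position, counted from 1. No source used here names the genome build.

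A junction read is a read that crosses the join between 2 exons. The 6 libraries held 163851 to 224962 junction reads each, of which 23075 to 35303 lay on the short introns. Among the short introns, log2 scaled reads of glucose replicates 1 and 2 correlated at r = 0.947, and replicate 3 correlated with them at 0.891 and 0.888 (545 introns, which share their libraries). Soybean oil replicates correlated at 0.921 to 0.936 and libraries of different media at 0.694 to 0.759. Glucose replicate 3 stood apart also in level: its scaled reads lay below those of replicates 1 and 2 by a median of 0.18 and 0.13 on the log2 scale, against medians of at most 0.02 in size between soybean oil libraries. Results that rest on it are given without it below.

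Lengths crowded toward the upper limit. The median was 70 nt (quartiles 67 and 73), and 81.1% of the introns measured 66 to 75 nt. Only 117 were 65 nt or shorter. Numbers fell toward shorter lengths, with 28 introns at 65 nt, 7 at 60 nt, 1 at 53 nt, none at 51 or 52 nt, and then 5 at exactly 50 nt, which was also the shortest junction in every one of the 11 deposited lists. Junctions listed in any of the 6 libraries numbered 0 at each length from 45 to 49 nt, 21 at 50 nt, 7 at 51 nt and 6 at 52 nt. Whether the junction calling left out introns below 50 nt was not tested, so shorter introns may exist. At the upper limit the set was cut through its most common lengths: 67 core introns measured 74 nt, 51 measured 75 nt, 50 measured 76 nt and 76 measured 77 nt. Their median reads per library were 31.3, 27.0, 30.6 and 27.8, so the limit of 75 nt did not coincide with a step in reads.

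**Figure D1:**
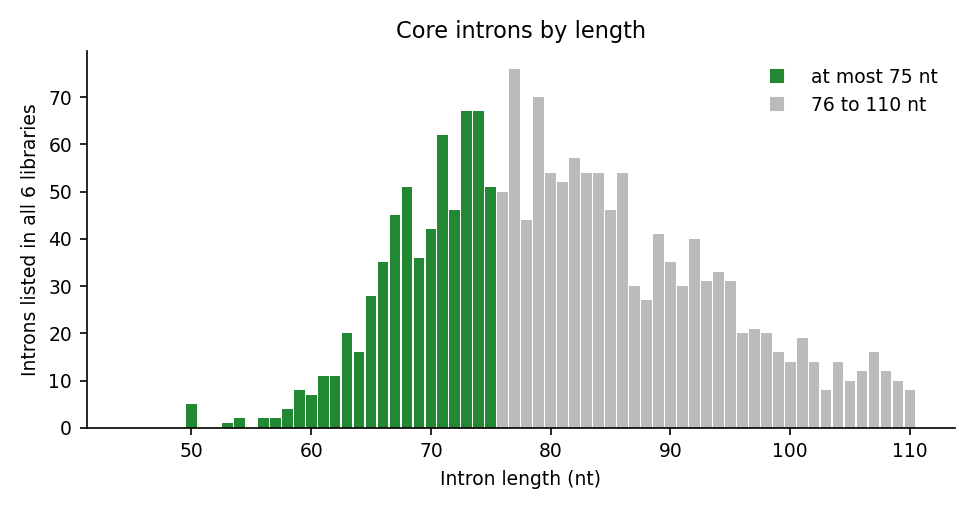
Number of core introns (listed in all 6 libraries) at each length from 50 to 110 nt, with introns of at most 75 nt in green and longer ones in grey. The counts rise from 1 intron at 53 nt to 67 at 74 nt and 76 at 77 nt, and 5 introns stand apart at 50 nt.

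The introns lay on 24 scaffolds, 307 on the plus strand and 312 on the minus strand. Scaffold 18 held 67 of them, scaffold 17 held 60 and scaffold 2 held 50. As a share of the core introns of a scaffold they ranged from 16.7% on scaffold 13 (18 of 108) to 44.7% on scaffold 1 (21 of 47). Lengths leaving a remainder of 2 on division by 3 were the most frequent: 235 introns (38.0%) had it, against 199 (32.2%) at a multiple of 3 and 185 (29.9%) with a remainder of 1. Core introns of 76 nt to under 110 nt had 37.6% with a remainder of 2 and 28.5% at a multiple of 3, and those of 110 to 1000 nt had 34.8% and 34.6%. The differences between these shares were not tested.

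Reads per intron do not depend on transcript length, because each junction is a single position. The mean over the 6 libraries had a median of 24.5 reads and quartiles of 14.8 and 47.3, against a median of 29.2 for the 1115 core introns of 76 nt to under 110 nt and 50.6 for the 552 of 110 to 1000 nt. Among the short introns the median of the glucose means was 16.7 reads at 50 to 60 nt (31 introns), 23.7 at 61 to 65 nt (86), 22.3 at 66 to 70 nt (209) and 27.0 at 71 to 75 nt (293). With soybean oil the medians were 16.0, 20.3, 23.7 and 28.7. Of the junctions listed in any of the 6 libraries, the share that was core rose with length up to the limit of 75 nt. It was 24.4% at 50 to 60 nt (31 of 127) and 49.4% at 61 to 65 nt. At 66 to 70 nt it was 62.8%, and at 71 to 75 nt 70.1%. Above the limit it fell again, from 69.7% in the next length class to 34.8% in the longest, which ended at 1000 nt. At 50 to 60 nt, 56 of the 127 junctions were in 1 library only, at a median of 1 read. Whether these were introns was not tested, so the share is not a rate of detection. The medians and shares are descriptions, since length and presence chose the members. In all, 1052 introns of at most 75 nt were listed in some library, and the 619 members held 94.3% of their reads.

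Of the 5 introns of 50 nt, the shortest length listed, 1 passed the test. On scaffold 24, at positions 32183 to 32232 (plus strand), the intron had 182, 170 and 375 reads on glucose and 39, 47 and 41 with soybean oil. All glucose values lay above all oil values, and replicate 3 was the highest. It fell by 2.71 on the log2 scale (SE 0.39, edgeR adjusted p 0.00166), or by 2.12 without glucose replicate 3. The paired-end library of oil replicate 2 had only 24 reads there against 47 in its 50 bp counterpart, although it held 11.3 times as many junction reads in all.

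The next pair of 50 nt introns lay on the minus strand of scaffold 24, at 137966 to 138015 and 137973 to 138022, shifted by 7 nt. Both had 21, 16 and 22 reads on glucose and 10, 21 and 3 with oil, the same numbers in each of the 6 libraries. They did not pass the test (edgeR adjusted p 0.188). In the paired-end library they differed, with 319 and 304 reads. A further pair of 50 nt junctions that were not core flanked them, at 137959 to 138008 and 137980 to 138029. On scaffold 11 the introns at 250506 to 250576 and 250510 to 250580 (plus strand, 71 nt each) also had equal reads in each of the 6 libraries, 41 in all. Whether such pairs share reads was not tested, and they are uncertain as separate introns. Leaving out 1 of each pair left 117 of 544 tested short introns called, the number found with them. The remaining introns of 50 nt had 5, 4 and 6 reads on glucose and 5, 7 and 4 with oil (scaffold 13, 753428 to 753477), and 8, 4 and 6 and then 4, 4 and 3 (scaffold 11, 433059 to 433108), too few to be tested.

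The share of all junction reads that fell on short introns was compared between media. It follows transcript levels as well as splicing, and these cannot be told apart here. The share was 15.9%, 15.5% and 14.1% in the glucose libraries and 15.5%, 15.7% and 15.5% with soybean oil. The means were 15.2% ± 0.949 and 15.6% ± 0.124 (SD, n = 3), and the groups overlapped. The difference of 0.41 percentage points was smaller than the spread of the glucose libraries (exact permutation test, two-sided, p 0.8, with 0.1 the smallest value possible for these groups). Glucose replicate 3 set its direction: without it the difference was -0.13 points (exact permutation p 0.6).

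Few introns carried a large part of these reads. The 10 most read held 18.0% of all reads on short introns, and without them the shares were 12.5% ± 1.17 and 12.6% ± 0.342 (SD, n = 3). A mean of at least 100 reads was reached by 52 introns and of at least 500 by 3, while 74 stayed under 10.

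**Figure D2:**
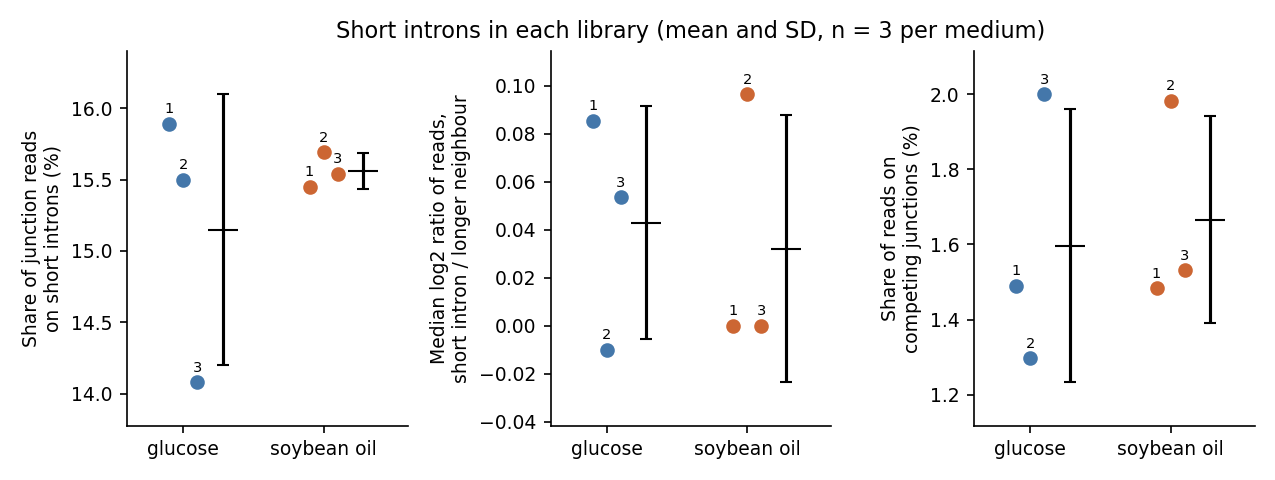
Values of the 6 libraries, numbered by replicate, with the mean and SD of each medium (n = 3) in black. Left, share of junction reads on introns of at most 75 nt (14.1% to 15.9%). Middle, median log2 ratio of reads between a short intron and its nearest longer neighbour (-0.01 to 0.10). Right, share taken by competing junctions of the reads on all 619 short introns and their competitors (1.3% to 2.0%). The media overlap in each panel.

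The intron with most reads overall lay on scaffold 16 at 489485 to 489552 (minus strand, 68 nt). It had 2526, 2299 and 2338 reads on glucose and 980, 511 and 744 with oil, without overlap, and fell by 1.79 on the log2 scale (SE 0.31, edgeR adjusted p 0.00392). It was also the most read junction of any length in the stranded glucose library, with 3492 and 3317 reads in its lists, where it alone took 3.54% and 3.39% of the junction reads. In the paired-end oil library it had 1632 reads, 3.19 times the 511 of the 50 bp library of that replicate.

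Next on glucose was the intron of scaffold 12 at 195183 to 195257 (minus strand, 75 nt) with 405, 367 and 651 reads, and 297, 338 and 270 with oil. Its log2 fold change of -0.84 missed the threshold (edgeR adjusted p 0.058), but passed it without glucose replicate 3, its highest library, at -0.42 (edgeR adjusted p 0.0422). The intron of scaffold 17 at 2251359 to 2251429 (minus strand, 71 nt) was among the 5 most read on both media and rose from 325, 303 and 340 to 776, 856 and 605 reads (log2 fold change 1.04, SE 0.17, edgeR adjusted p 0.00318). The scaffold 14 intron at 334623 to 334696 (minus strand, 74 nt) fell from 379, 283 and 270 to 231, 168 and 187 reads (log2 fold change -0.78, SE 0.21, edgeR adjusted p 0.0299), and lost the call when any 1 library other than soybean oil replicate 1 was left out. At 288646 to 288715 of scaffold 15 (plus strand, 70 nt), another of the 5 most read on glucose had 377, 276 and 302 reads and 334, 369 and 319 with oil, which overlapped.

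The comparison of media then asked which of these introns changed in junction reads. Of the 619 short introns, 545 passed the filter on low counts, and edgeR's quasi-likelihood test called 117 of them (21.5%), where it called 21.7% of all 2270 tested junctions. The share of called short introns was thus near the background. Higher reads with oil were found for 61 short introns (background 9.78% of all tested junctions) and lower reads for 56 (background 11.9%). A change of at least 2-fold was called for 31 higher introns (background 5.46%) and 43 lower ones (background 9.3%). The median log2 fold change was -0.03 among short introns and -0.01 among all tested junctions, and the median size of the change was 0.43 and 0.44. Core introns of 76 nt to under 110 nt had 216 of 1004 called and those of 110 to 1000 nt 103 of 504. Scaled reads did not overlap between media in 228 of the 545 (41.8%), against 41.3% of all tested junctions. The calls depended on single libraries, as did those of all tested junctions. Of the 117 introns, 57 were still called when glucose replicate 1 was left out, 54 when glucose replicate 2 was, 64 when replicate 1 of the oil group was and 60 when its replicate 3 was. Without replicate 2 of the oil group 82 of them were, and without glucose replicate 3, which stood apart, 96. In that last setting 110 short introns were called in all, 54 higher and 56 lower. Reads are shares of a library, so more transcript per cell, more cells that make it and more complete splicing cannot be told apart.

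**Figure D3:**
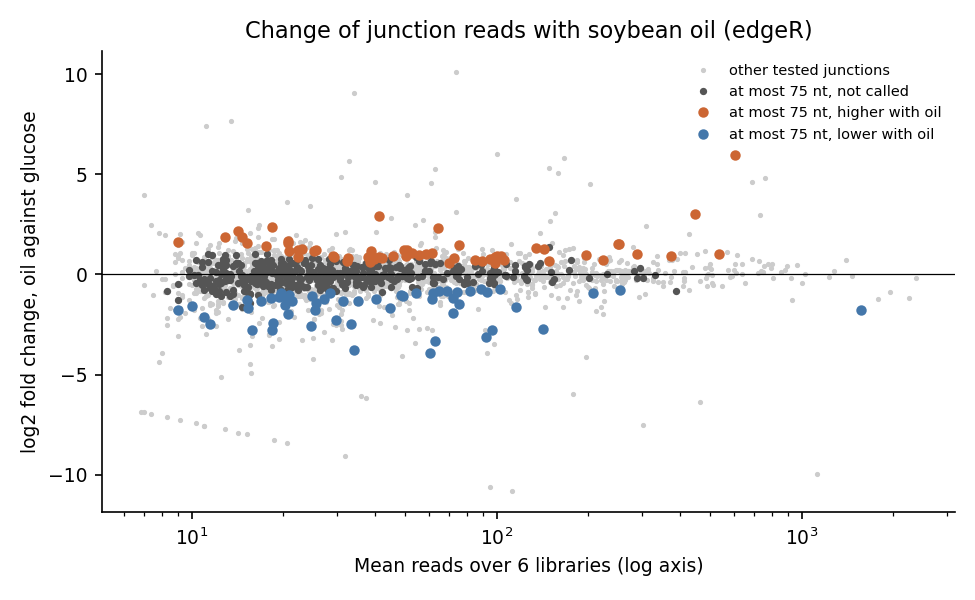
log2 fold change of junction reads (soybean oil against glucose, edgeR) against the mean reads over the 6 libraries on a log axis, for 545 introns of at most 75 nt (dark grey, or coloured where called) and the other tested junctions (light grey). The 61 higher and 56 lower short introns spread over the range of reads, with the largest rise at 5.94 and the largest fall by 3.94 on the log2 scale.

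The strongest rise belonged to the intron of scaffold 6 at 289785 to 289850 (minus strand, 66 nt), which had 19, 14 and 19 reads on glucose and 1156, 1371 and 1057 with oil. It was the most read short intron in all 3 unstranded 50 bp oil libraries and in the paired-end library (17576 reads). In the stranded oil lists it had 173 and 166 reads, and the scaffold 16 intron was the most read short intron there (652 and 686). Second was an intron of only 59 nt on scaffold 20, at 13311 to 13369 (plus strand), with 90, 106 and 73 reads on glucose and 744, 872 and 803 with oil (log2 fold change 3.02, SE 0.18, edgeR adjusted p 2.06e-05). Another on the same scaffold, at 87939 to 88012 (minus strand, 74 nt), was the fifth most read with oil and rose from 292, 228 and 205 to 522, 542 and 448 reads (log2 fold change 0.92, SE 0.15, edgeR adjusted p 0.00296). In each of these the media were far apart and replicates of a medium close together.

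Further rises started from few reads. The intron of scaffold 2 at 2036744 to 2036818 (minus strand, 75 nt) went from 8, 8 and 9 to 57, 107 and 57 reads (log2 fold change 2.94, SE 0.27, edgeR adjusted p 0.000141). On scaffold 6, at 558156 to 558230 (plus strand, 75 nt), reads went from 27, 17 and 14 to 81, 141 and 106 (log2 fold change 2.34, SE 0.24, edgeR adjusted p 0.000282). Smaller rises were seen on scaffold 21 at 247245 to 247318 (9, 10 and 8 to 24, 45 and 28 reads) and on scaffold 11 at 151723 to 151793 (10, 9 and 10 to 29, 26 and 40). The latter lost its call without glucose replicate 1, glucose replicate 2 or soybean oil replicate 3 (edgeR adjusted p 0.0504 to 0.0577).

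A pair of very short introns on the minus strand of scaffold 21 rose side by side. The intron at 417205 to 417268 (64 nt) had 106, 91 and 150 reads on glucose and 282, 564 and 304 with oil, and that at 417355 to 417414 (60 nt) had 126, 93 and 133 and then 305, 542 and 308. Soybean oil replicate 2 was the highest library for both, and the media did not overlap. Their log2 fold changes were 1.51 (SE 0.27, edgeR adjusted p 0.00504) and 1.52 (SE 0.21, edgeR adjusted p 0.00158).

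The strongest and the third strongest fall were seen side by side on the plus strand of scaffold 10. The intron at 442702 to 442767 (66 nt) had 171, 134 and 35 reads on glucose and 4, 16 and 4 with oil, and that at 443278 to 443352 (75 nt) had 166, 139 and 36 and then 10, 21 and 6. In both, glucose replicate 3 lay between the other glucose libraries and the oil libraries, and oil replicate 2 was the highest of its medium. The log2 fold changes were -3.94 (SE 0.60, edgeR adjusted p 0.00225) and -3.33 (SE 0.53, edgeR adjusted p 0.00274), and the first was -4.74 without soybean oil replicate 2. The paired-end library of that replicate had 1688 and 2103 reads on them, 105.5 and 100.1 times its 50 bp counterpart, where the totals differed 11.3 times. As shares of its 2532134 junction reads, both lay within the range of the glucose libraries. The falls seen in the 50 bp libraries were thus absent from this library of an oil replicate, and the reason was not tested.

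The second strongest fall was on scaffold 17, at 1099974 to 1100042 (plus strand, 69 nt), where reads went from 75, 66 and 49 to 3, 6 and 6 (log2 fold change -3.77, SE 0.27, edgeR adjusted p 4.14e-05). On scaffold 4, at 99058 to 99125 (plus strand, 68 nt), they went from 140, 137 and 213 to 22, 28 and 13 (log2 fold change -3.15, SE 0.32, edgeR adjusted p 0.000249). At 377210 to 377275 of scaffold 21 (plus strand), a 66 nt intron had 174, 160 and 162 reads on glucose and 8, 41 and 33 with oil, so its oil libraries varied more than its glucose libraries. The last of the 8 strongest were on scaffold 17 at 672629 to 672701 (54, 45 and 26 to 9, 8 and 6 reads) and on scaffold 3 at 137067 to 137129 (64, 58 and 45 to 12, 11 and 10), with log2 fold changes of -2.55 and -2.47. On the 2 scaffold 17 introns the paired-end library of oil replicate 2 had 329 and 301 reads, against 6 and 8 in its 50 bp counterpart. For those of scaffolds 4, 21 and 3 it had 158, 318 and 139 against 28, 41 and 11. The totals differed 11.3 times, and the reason for the unequal ratios was not tested.

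**Figure D4:**
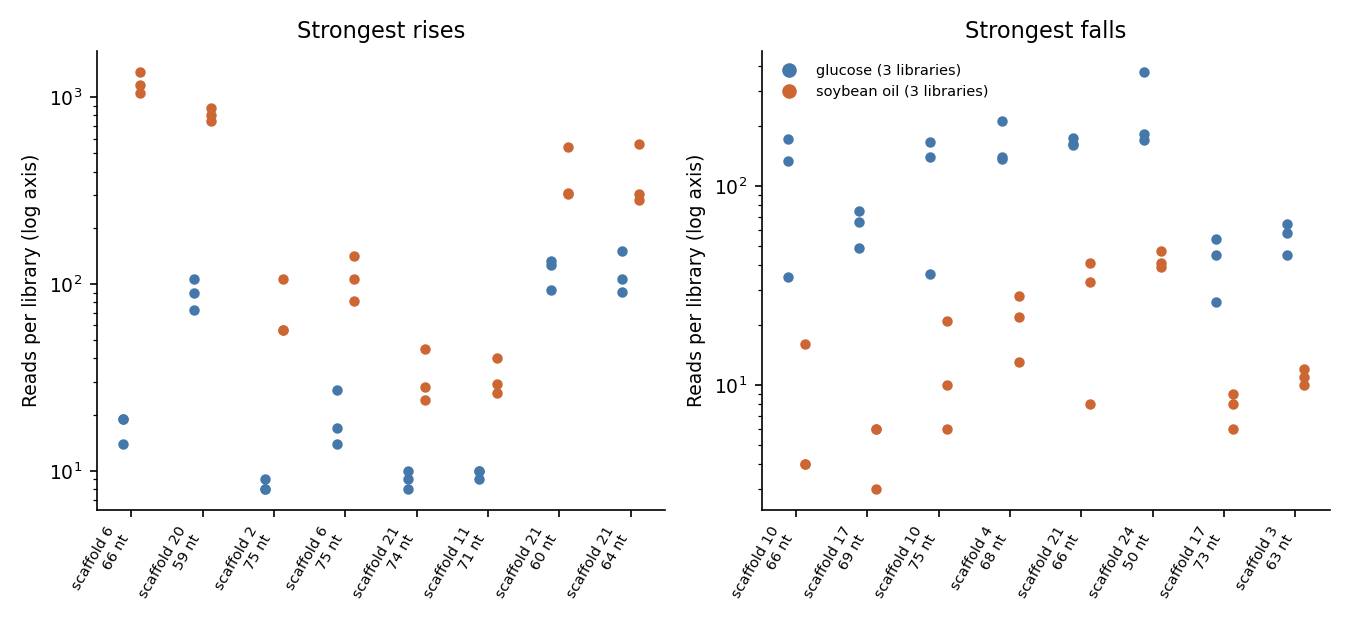
Junction reads in each of the 3 glucose and 3 soybean oil libraries (log axis) for the 8 strongest rises (left) and the 8 strongest falls (right) among called introns of at most 75 nt with a mean of at least 20 reads and no overlap between media. The rises reach 1371 reads on scaffold 6, and the falls start from up to 375 reads on scaffold 24.

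Some well-read introns hardly differed between media. Those nearest to no change with at least 100 mean reads lay on scaffold 12 at 233341 to 233412 (251, 236 and 164 reads on glucose and 246, 296 and 191 with oil), on scaffold 17 at 574921 to 574987 (139, 82 and 86, then 82, 123 and 126) and on scaffold 2 at 241524 to 241593 (114, 105 and 87, then 83, 133 and 118). Their log2 fold changes were 0.02 (SE 0.16), -0.02 (SE 0.23) and -0.02 (SE 0.18).

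Most short introns stood alone, and some stood in rows. Joining short introns of 1 strand with at most 500 nt between them gave 488 loci, of which 387 held 1 intron, 81 held 2 and 20 held 3 or more. Over the 128 neighbouring pairs the exon between them had a median of 127 nt (quartiles 84.8 and 244.5). No core intron of any length lay within 1000 nt on the same strand for 236 short introns (38.1%), against 41.2% of the introns of 76 nt to under 110 nt and 41.5% of those of 110 to 1000 nt. Where both introns of a neighbouring pair were called, in 20 of 120 tested pairs, all 20 changed in the same direction. Among all 120 tested pairs, called or not, 92 had the same sign of change, and 1 intron alone was called in 14.

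The loci with most members held nothing but short introns or nearly so. On scaffold 4, 6 introns of 58 to 69 nt were packed into 1412 nt (120608 to 122019, minus strand) with exons of 63 to 444 nt between them. Their means ran from 7.33 to 31.3 reads on glucose and from 13.3 to 41.7 with oil, and 1 of them, at 121305 to 121373, was called (24, 21 and 24 to 38, 49 and 38 reads, log2 fold change 0.69, edgeR adjusted p 0.0375). That call was lost under each of several alternatives, among them DESeq2 (adjusted p 0.252). On scaffold 17, 6 introns of 66 to 74 nt lay within 1069 nt (1299989 to 1301057, minus strand), separated by exons of 48 to 209 nt. Their means were 10.3 to 20.3 reads on glucose and 13.0 to 22.0 with oil, and none was called (edgeR adjusted p 0.335 to 0.844).

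The third locus, on scaffold 9 at 126407 to 127379 (plus strand), held 5 short introns of 64 to 75 nt among 6 core introns, with as little as 32 nt of exon between the first and the second. Of these, 3 were called lower, at 126407 to 126480 (91, 87 and 54 to 39, 67 and 33 reads), 126513 to 126576 (88, 92 and 59 to 46, 64 and 40) and 127314 to 127379 (89, 77 and 41 to 30, 59 and 31). Their log2 fold changes of -0.90, -0.83 and -0.94 (edgeR adjusted p 0.025, 0.0183 and 0.0396) stood beside -0.63 and -0.52 for the other two (edgeR adjusted p 0.136 and 0.126). Raw reads of oil replicate 2 overlapped glucose replicate 3 in all 5, while reads scaled by library size and TMM factor did not. These factors were 0.9475 for glucose replicate 3 and 1.0313 for oil replicate 2. Scaled to library size alone, the introns starting at 126726, 127141 and 127314 still overlapped. The 3 calls were each lost without glucose replicate 1, glucose replicate 2, soybean oil replicate 1 or soybean oil replicate 3.

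Reads on a short intron rise and fall with its transcript, so each was set against the nearest core intron of 76 to 1000 nt on the same strand with at most 1000 nt of exon between. Such a neighbour was found for 232 short introns (37.5%), and these used 180 neighbours, 39 of them more than once. The median exon between them was 165.5 nt and the median neighbour length 82 nt. The median log2 ratio of short intron to neighbour was 0.09, -0.01 and 0.05 in the glucose libraries and 0.00, 0.10 and 0.00 with oil, so reads on the shortest introns were about equal to those on the longer introns next to them. The means of 0.04 ± 0.05 and 0.03 ± 0.06 (SD, n = 3) did not differ beyond the spread (two-sided exact permutation p 1.0, smallest possible 0.1). The short intron had fewer reads in all 6 libraries in 46 pairs and more in all 6 in 46 others.

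Changes between media were shared within pairs. Both introns were tested in 210 pairs, and their log2 fold changes correlated at r = 0.843 across these pairs, which share their libraries. Both were called in 19 pairs, 9 higher and 10 lower together, and none in opposite directions. In 19 pairs the short intron alone was called and in 20 its neighbour alone. The ratio within a pair did not overlap between media in 35 of the 232 pairs (15.1%), near the 14.9% among 497 neighbouring pairs of longer core introns.

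**Figure D5:**
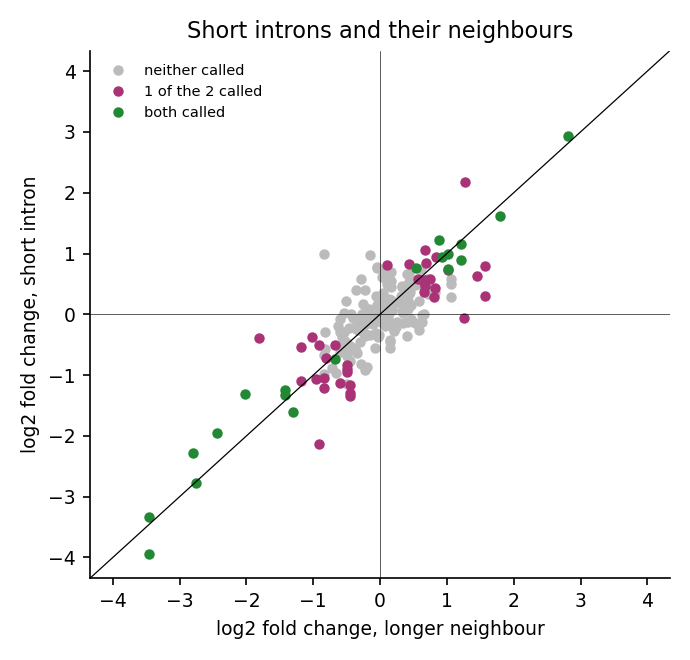
log2 fold change (soybean oil against glucose, edgeR) of a short intron against that of its nearest longer core intron, for 210 pairs in which both were tested, with the line of equality. The 19 pairs with both introns called (green) lie at the lower left and upper right, and 39 pairs had 1 intron called (purple).

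A few pairs were at least 2-fold apart in reads in every library, named here after their values were seen. On scaffold 3 (minus strand) the 71 nt intron at 468098 to 468168 had 27, 23 and 15 reads on glucose and 46, 32 and 36 with oil, while the 84 nt intron at 467864 to 467947 had 4, 5 and 3 and then 14, 10 and 11. On scaffold 6 (minus strand) the order was the other way, with 10, 11 and 6 and then 18, 23 and 10 reads on the 68 nt intron at 510575 to 510642 beside 45, 34 and 23 and then 43, 71 and 59 on the 82 nt intron at 510848 to 510929. For the 50 nt intron of scaffold 13 at 753428, the 233 nt neighbour at 753109 to 753341 had 34, 37 and 40 reads on glucose and 19, 18 and 18 with oil. The ratio within the pair overlapped between media on scaffold 6, but not on scaffold 3 (change of -0.63 from glucose to oil on the log2 scale) or scaffold 13 (change of 1.06). Whether such pairs lie in 1 transcript was not tested.

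Competing junctions, which share the donor or the acceptor with a short intron, were rare in reads. They touched 159 of the 619 introns (25.7%) through 200 pairs, 133 at the donor and 67 at the acceptor. A single library listed 149 of these pairs' competitors, at a median of 1 read, and all 6 libraries listed 6. Of the reads on all 619 short introns and their competitors together, competitors took 1.49%, 1.30% and 2.00% on glucose and 1.48%, 1.98% and 1.53% with oil. The means of 1.596% ± 0.363 and 1.666% ± 0.275 (SD, n = 3) overlapped (two-sided exact permutation p 0.8, smallest possible 0.1), and the sign of the difference turned when competing junctions over 1000 nt were left out. Over the 159 introns with a competitor alone, competitors took 3.752% ± 0.707 and 4.399% ± 0.780 (SD, n = 3, exact permutation p 0.4). A single junction held much of their reads, and leaving it out of the share over all 619 gave 0.810% ± 0.230 and 1.03% ± 0.244 (SD, n = 3, exact permutation p 0.4). At least 10% of the reads went to a competitor at 16 introns.

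The competing junction with most reads was on scaffold 24 (plus strand), where 2 short introns met with no exon between them. Junctions joined 104365 to 104427 (63 nt), 104428 to 104488 (61 nt) and both together as 104365 to 104488 (124 nt). The 63 nt junction had 46, 43 and 50 reads on glucose and 43, 53 and 36 with oil, the 61 nt junction 180, 127 and 164 and then 126, 185 and 143, and the 124 nt junction 230, 184 and 223 and then 169, 246 and 184. Against the 63 nt intron the long form took 82.0% ± 1.18 on glucose and 81.9% ± 1.99 with oil, and against the 61 nt intron 57.6% ± 1.53 and 56.9% ± 0.538 (SD, n = 3), so the balance was alike in the 6 libraries of 50 bp reads. It differed in the paired-end library, which listed 448 reads for the 61 nt and 172 for the 124 nt junction and did not list the 63 nt junction at all.

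On scaffold 4 (minus strand) the donor at 30001 was joined to acceptors 30 nt apart, giving introns of 74 and 104 nt. The 74 nt form rose from 38, 33 and 28 to 75, 75 and 54 reads (log2 fold change 0.89, SE 0.20, edgeR adjusted p 0.0142), and the 104 nt form had 25, 35 and 23 and then 60, 69 and 46. The longer form took 45.4% ± 5.90 of the glucose reads and 46.1% ± 1.74 of the oil reads (SD, n = 3), and 334 against 520 reads in the paired-end library. The call was lost without glucose replicate 1, glucose replicate 2 or soybean oil replicate 1 (edgeR adjusted p 0.0504 to 0.0606).

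Other competitors, named after their values were seen, were uneven between media. The acceptor of the 63 nt intron of scaffold 21 at 545534 to 545596 (minus strand) was also joined to a donor at 564063, in a junction of 18530 nt with 15, 12 and 14 reads on glucose and none with oil, which allows up to 3 reads per library. The short intron itself had 44, 41 and 31 reads and then 39, 40 and 29, and was not called. The donor of the 70 nt intron at 245997 to 246066 (plus strand) of the same scaffold had the reverse, a junction of 19371 nt with no reads on glucose and 18, 29 and 20 with oil. Neither long junction was listed for the paired-end library. At 1942892 on scaffold 17 (plus strand), a donor 18 nt upstream of the 75 nt intron at 1942910 to 1942984 had 8, 0 and 2 reads on glucose and 5, 16 and 7 with oil, beside 32, 31 and 17 and then 15, 36 and 24 on the short intron. The difference was not tested.

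The other library kinds held most of the set. The paired-end library listed 617 of the 619 short introns and 1692 of the 1693 longer core introns. The exceptions were the 63 nt intron of scaffold 24 and 1 of scaffold 2 at 291782 to 291843 (minus strand, 4, 5 and 1 reads on glucose and 1 in each oil library). Its reads on short introns were 17.1% of all its junction reads (95% Wilson interval 17.0% to 17.1%, counting error only), against 15.7% in the 50 bp library of that replicate. Of 424 short introns with at least 20 reads in the latter, 348 (82.1%) lay within 2-fold of the ratio of totals, 8 more than 4-fold below it and 4 more than 4-fold above it.

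In the stranded libraries 584 short introns (94.4%) were in a list for glucose and 523 (84.5%) in a list for oil, close to the 93.6% and 84.3% of introns of 76 nt to under 110 nt and above the 85.1% and 78.1% of those of 110 to 1000 nt. The difference was not tested. Short introns took 21.8% (95% Wilson interval 21.5% to 22.1%) and 21.9% (21.7% to 22.2%) of the junction reads in the glucose lists, and 19.3% (18.9% to 19.7%) and 19.1% (18.7% to 19.5%) in the oil lists. These shares lay above the 15.9% and 15.5% of the unstranded libraries of replicate 1. Without the most read short intron the first glucose list stood at 18.9% and its unstranded counterpart at 14.8%. With 1 stranded library per medium, preparation and sample cannot be told apart.

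The lists of a stranded library are not explained in the labels. For glucose both held short introns of either strand (270 plus and 279 minus in the first, 280 and 280 in the second), and reads in the first over the second had a median ratio of 1.0 across 525 introns. Of the 117 introns called in the main comparison, 102 (87.2%) had a difference of the same sign between the stranded libraries. These carry the number of replicate 1, whose libraries entered the test, so this is no independent check. No stranded list held 26 of the short introns. The most read of them lay on scaffold 14 at 334776 to 334849 (minus strand, 74 nt), with 313, 245 and 229 reads on glucose, 181, 129 and 145 with oil and 275 in the paired-end library. It stood 79 nt from the intron at 334623 to 334696, which had 277 and 301 reads in the stranded glucose lists.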

How the data were processed

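Junction lists of 9 libraries were used. The deposited values are read counts, 1 line per spliced junction, and were made with TopHat 1.4.1, per the submitters' processing notes. No source used here names the genome build or the settings. RPKM values per gene were not used, since no file links genes to positions. First and last intron bases were computed from the block sizes, and introns were matched by scaffold, position and strand.

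Junction counts were tested with edgeR 4.0.16 in R 4.3.3 (quasi-likelihood test, filter on low counts, TMM factors, Benjamini-Hochberg adjustment over all 2270 tested junctions, threshold 0.05). The SE was the log2 fold change over the root of F. In simulated counts, changes were given only to junctions with at least 20 mean reads, and a dispersion of 0.025 was set for all. Of these changes, 83% of the 2-fold and 100% of the 4-fold ones were found. There were 4 false calls among the unchanged junctions of the 2298 tested. These rates were not measured for weaker junctions or at the spread of the real libraries. Values per library were compared by exact permutation, and ratios used a pseudocount of 0.5.

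Introns were named by rule: the 5 shortest, the 5 most read per medium, the 8 strongest called rises and falls with at least 20 mean reads and no overlap, the 3 nearest to no change, the 3 largest loci and the 3 with the largest competitors. The members and lists were chosen with earlier results of these data known. Alternatives were another scaling, no filter, DESeq2 1.42.0, other junction sets, a replicate block and leaving out each library.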

Additional observations from a re-analysis of the deposited data

How the results depend on the processing

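The count of changed short introns (117, with 61 higher and 56 lower) kept within 1.5 times under another scaling (117), without the filter (108), in core introns alone (145), without junctions over 1000 nt (127), under DESeq2 (81 in all, though its 38 higher introns did not) and without 1 of each pair that may share reads (117, an alternative chosen after seeing the data). Leaving out 1 library gave 55 to 110, with 28 to 54 higher and 26 to 56 lower, and requiring a 2-fold change gave 74. In core introns alone 26.61% of tested short introns were called, against 27.52% of all tested junctions. Without junctions over 1000 nt these shares were 23.3% and 23.61%, and under DESeq2 14.86% and 15.9%. With 1 library left out they were 9.857% to 19.54% and 11.88% to 19.96%. Without the filter they were 17.45% and 7.122%, the latter over all 8340 listed junctions. A limit of 70 nt gave 326 introns in place of 619.

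The differences of shares and ratios had no stable sign. Leaving out 1 library, the share of junction reads on short introns differed by -0.13 to 0.772 percentage points, the median log2 ratio to the neighbour by -0.043 to 0.01 and the share of competing junctions by -0.088 to 0.272 points. The last was -0.054 with competitors of at most 1000 nt, and 0.646 and 0.218 over introns with a competitor alone and without the most read competitor, which were chosen after seeing the data. No exact permutation p was under 0.2 in any of these.

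Replicate numbers gave no sign of paired samples: deviations of same-numbered libraries correlated at -0.062, 0.037 and 0.045. Differently numbered libraries of the 2 media correlated at -0.077 to 0.041. With 3 replicates per medium these values cannot settle whether the cultures were paired. With the replicate number as a block 85 short introns were called (15.6%, against 15.8% of all tested junctions), 43 higher and 42 lower. Of 47 named introns tested, 39 kept their side of the threshold under all alternatives. A median of 24.5 reads limits what small changes could be called, and 74 introns were too weak to be tested.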
